A study of Mus musculus with 16 samples.

Results

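Macrophages grown from the bone marrow of wild-type mice were compared with and without medium conditioned by melanoma cells, 3 libraries against 3, over every expressed autosomal gene. The comparison was set by the sample labels alone, with no measured value in its rule. It used 6 of the 16 libraries of the series and 13132 of the 50188 autosomal genes in the files, those with enough counts to be tested. Both groups were marrow cells differentiated with M-CSF at 20 ng/mL for 7 days and cultured for another 24 h. The WT naive group received no tumor medium, and the WT TCM group received 70% tumor-conditioned medium (TCM) from YUMM1.7, a mouse melanoma cell line. The other 3 groups, labelled TRAP1 KO, JMJD3 WT and JMJD3 cKO (conditional knockout), all with TCM, are given only beside some genes. The sources used here do not give mouse strain, age or sex. Whether each replicate was its own mouse or culture is not stated either, so a p-value measures only how far these libraries spread, which may be technical. None of the 16 libraries is labelled as treated with medium conditioned by other cells, so products of the tumor cells and the loss of fresh medium cannot be told apart.

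Macrophages are phagocytes that read their surroundings through receptors for microbial products, dying cells, antibodies, lipids and cytokines, and change their secreted proteins and metabolism in response. Inside tumors they are exposed to secreted tumor proteins, lactate and little oxygen, and tumor macrophages are known for vessel-promoting factors, matrix remodelling and weak antigen presentation. Conditioned medium carries only the soluble part of such an environment, without contact with tumor cells.

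The WT naive libraries held 20506820 to 22351578 counts and the WT TCM libraries 15361604 to 19326128, so depth did not overlap between the groups. Thinning every library to 15361604 counts left 2740 genes higher and 2640 lower. Replicates were close, with a variance between libraries of a group of 1.77 to 2.35 times that of counting alone and a common biological coefficient of variation of 0.0266. The first principal component, which separated the groups, held 68.4% of the variance. Trap1, the gene targeted in another group, was at 70.3, 71.0 and 69.3 CPM (a gene's share of its library's counts, scaled with TMM) in WT naive and at 63.5, 74.0 and 72.6 in WT TCM. Y-linked Ddx3y was detected in all 6 libraries at 83.9 to 91.7 CPM.

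The cultures carried the defining markers of macrophages. The 12 macrophage markers summed to 21800 to 22000 CPM in WT naive and 33200 to 33700 in WT TCM. The 8 melanoma markers stayed at or below 0.399 CPM in every library, and Tyr, Tyrp1, Dct, Slc45a2 and Oca2 had 0 counts in all 6 libraries, where 3 counts would be 0.133 to 0.197 CPM.

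Several traces of other marrow cells were lower with TCM, while the sums of 2 other lists were higher. The 8 T cell markers summed to 15.8 to 16.7 CPM in WT naive and 29.7 to 31.4 CPM with TCM, nearly all from Cd4. The 6 megakaryocyte markers summed to 186 to 193 CPM and 602 to 608 CPM, nearly all from Pf4. The 13 neutrophil markers summed to 56.8 to 60.7 CPM in WT naive and 6.42 to 8.56 with TCM, and each of the 7 tested markers fell. The 12 fibroblast markers summed to 22.7 to 23.3 CPM and 2.03 to 2.40 CPM, and again all 7 tested members fell. A marker near 0 with TCM could have enough counts to be tested only through WT naive. That favours falls among the tested members of such lists, whereas the sums cover all members, tested or not. Col3a1, a fibrillar collagen chain, had 126 counts over the WT naive libraries and 0 over the WT TCM libraries, a drop of at least 34.1-fold when 3 counts per group are taken as the limit. Mpo, the myeloperoxidase of neutrophil precursors, had 64 counts and 0, a drop of at least 17.3-fold. Gzmb, a granzyme of cytotoxic lymphocytes, had 34 and 0, and Kit, the receptor of mast cells and progenitors, fell from 103 to 12 counts. Of 6 tested monocyte markers 4 fell and 0 rose (median log2 fold change -1.74). Among them Ly6c2, Plac8 and Cd177 had means of 0.756 to 2.51 CPM in WT naive. The chemokine receptor Ccr2, at 93.0 and 95.1 CPM, made up nearly all of the monocyte sum and was not called, nor was Hp. In these bulk libraries fewer cells of a type and less RNA per cell cannot be told apart.

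**Figure D1:**
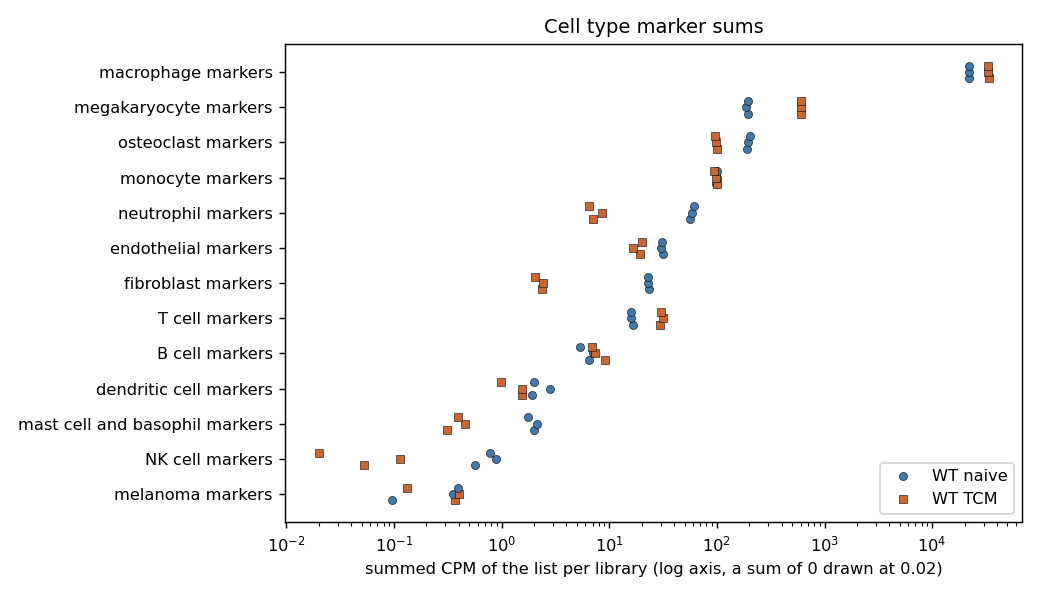
Summed level of each cell type marker list in each library, in CPM on a log axis, with circles for WT naive and squares for WT TCM (n = 3 each). Neutrophil and fibroblast sums of WT TCM lie below those of WT naive with no overlap. Macrophage, T cell and megakaryocyte sums lie above, and monocyte sums, nearly all from Ccr2, overlap.

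Of the 13132 autosomal genes, 2972 were higher with TCM (22.6% of those tested) and 2826 were lower (21.5%), at an adjusted p under 0.05 in edgeR's quasi-likelihood test, 44.2% in either direction. Most changes were small. The median absolute log2 fold change of called genes was 0.292, and the median over all genes tested was -0.01. A change of at least 2-fold was reached by 296 genes that rose (2.25%) and 361 that fell (2.75%), and of at least 4-fold by 55 and 91. The 3 libraries of one group lay entirely above those of the other for 6733 genes (51.3%). The share called followed the level, from 203 of 1349 genes with a mean under 1 CPM to 76.0% of those over 100 CPM. Of the 361 genes that fell at least 2-fold, 283 (78.4%) had a mean under 10 CPM, as had 196 (66.2%) of the 296 that rose. With a filter of at least 50 counts in 3 libraries the 2-fold counts were 177 and 185.

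**Figure D2:**
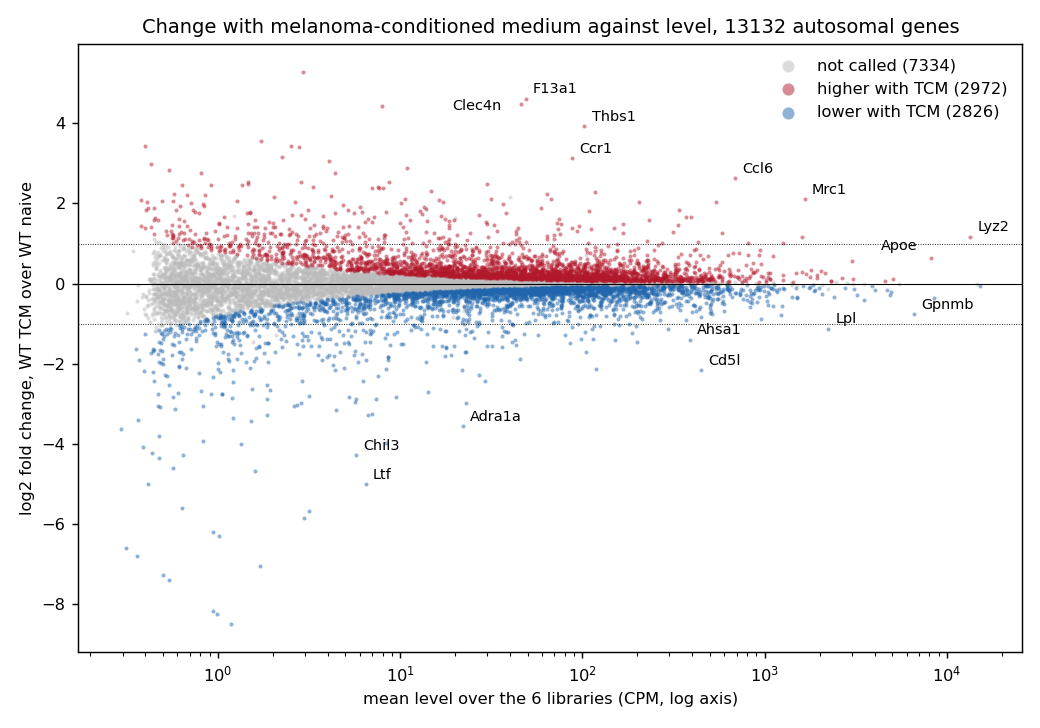
Log2 fold change of WT TCM over WT naive against the mean level over the 6 libraries (CPM, log axis) for each of the 13132 autosomal genes, with called genes in red (higher) and blue (lower). Dotted lines mark a 2-fold change, and points below -6 are genes with counts at or near 0 in WT TCM, whose fitted values depend on the prior count.

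Genes named by rank were taken only from called genes whose groups did not overlap. Over all genes tested, the groups of 51.3% did not overlap. Among those taken, the genes that rose most at a mean of at least 5 CPM included F13a1 and Clec4n. F13a1 (ENSMUSG00000039109, chromosome 13, 36867178 to 37050244, minus strand, GRCm38), the A chain of coagulation factor XIII, was at 3.85, 3.60 and 4.09 CPM in WT naive and at 93.7, 92.1 and 95.9 CPM in WT TCM. Clec4n (ENSMUSG00000023349, chromosome 6, 123229843 to 123247021, plus strand), the fungal receptor Dectin-2, was at 3.85, 3.51 and 4.53 CPM and at 90.4, 89.8 and 83.5 CPM. For F13a1 and Clec4n every WT TCM library lay above every WT naive library, with log2 fold changes of 4.61 (SE 0.07, adjusted p = 6.3e-62) and 4.48 (SE 0.07, adjusted p = 1.0e-59). Thbs1 (ENSMUSG00000040152, chromosome 2, 118111876 to 118127133, plus strand), the matrix glycoprotein thrombospondin-1, was at 12.7, 12.6 and 12.3 CPM and at 196, 187 and 193 CPM. Its groups did not overlap either (log2 fold change 3.93, SE 0.04, adjusted p = 9.4e-71). Igfbp4, a secreted binder of insulin-like growth factors, rose from 145, 148 and 151 CPM to 526, 528 and 530 CPM (log2 fold change 1.84, SE 0.02). Ets2, a transcription factor of the ETS family, rose from 48.1, 49.2 and 47.9 to 164, 177 and 167 CPM (1.81, SE 0.03).

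Transcripts that already took a large share of each library moved too. Lyz2 (ENSMUSG00000069516, chromosome 10, 117277331 to 117282321, minus strand), the lysozyme of myeloid cells, was at 8225, 8192 and 8309 CPM in WT naive and at 18800, 18430 and 18400 CPM in WT TCM (log2 fold change 1.17, SE 0.01, adjusted p = 1.3e-75). Dab2, an endocytic adaptor, rose from 984 ± 9.38 to 2210 ± 31.4 CPM (mean ± SD, n = 3 per group here and below). In the other direction, Gpnmb, a glycoprotein of lipid-loaded macrophages, was at 8200, 8162 and 8341 CPM and fell to 4900, 4778 and 4902 CPM (-0.76, SE 0.01). Psap, the precursor of the saposins that help degrade lysosomal lipids, fell from 9464 ± 114 to 7405 ± 31.2 CPM (-0.35). The 10 transcripts with most counts took 8.46% ± 0.104 of the counts in WT naive and 9.16% ± 0.0560 in WT TCM.

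**Figure D3:**
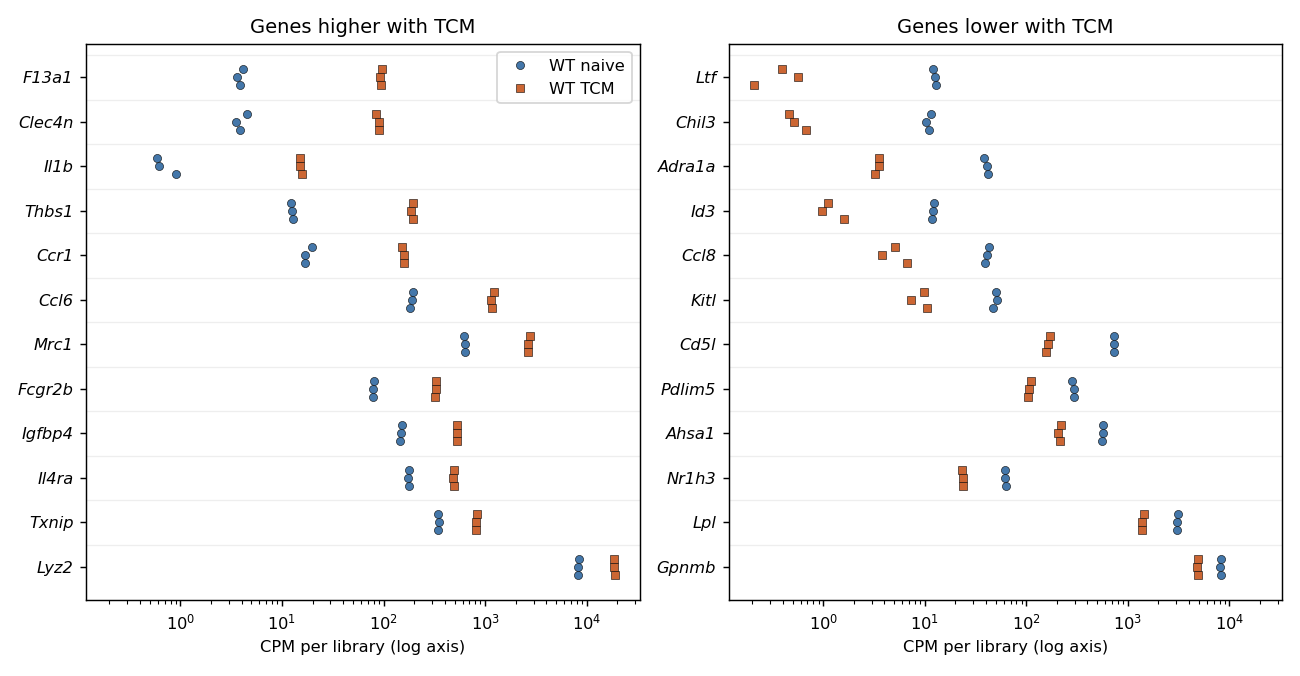
Level of 12 genes higher and 12 genes lower with TCM in each library, in CPM on a log axis, with circles for WT naive and squares for WT TCM. In every gene shown the 3 libraries of one group lie apart from the 3 of the other, which the rule for naming these genes required.

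Among the deepest falls at a mean of at least 5 CPM were receptors and signalling genes. Adra1a (ENSMUSG00000045875, chromosome 14, 66635251 to 66771168, plus strand), an adrenergic receptor, fell from 42.2, 40.8 and 38.7 CPM to 3.23, 3.54 and 3.54 CPM (log2 fold change -3.56, SE 0.09, adjusted p = 8.8e-47). Htr2b, a serotonin receptor, fell from 24.8 ± 1.51 to 3.77 ± 0.405 CPM (-2.71), and Adcy2, an adenylyl cyclase, from 12.7 ± 1.11 to 1.32 ± 0.490 CPM (-3.26). Kitl, the ligand of the receptor KIT, fell from 46.9, 51.1 and 50.0 CPM to 10.4, 7.25 and 9.83 CPM (-2.43, SE 0.08). Ltf, Ngp, S100a8 and S100a9, which are neutrophil granule and cytosolic proteins, also fell, at log2 fold changes from -5.00 to -2.83. These 4 belong to the neutrophil list whose sum is given above, and the part of such cells in their falls was not tested.

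Abundant genes that fell included Cd5l (ENSMUSG00000015854, chromosome 3, 87357881 to 87371073, plus strand), a secreted macrophage protein that binds lipids and fatty acid synthase. It was at 730, 735 and 725 CPM in WT naive and at 156, 164 and 170 CPM in WT TCM (log2 fold change -2.16, SE 0.02, adjusted p = 1.6e-72). Ahsa1, which stimulates the ATPase of the chaperone HSP90, fell from 563, 567 and 564 CPM to 216, 207 and 217 CPM (-1.41, SE 0.02). Pdlim5, a scaffold protein of the actin cytoskeleton, fell from 292 ± 7.47 to 107 ± 3.38 CPM (-1.45), and Ly6a, the surface protein Sca-1, from 194 ± 2.97 to 43.9 ± 2.26 CPM (-2.14). The groups of all 4 genes were separate, as the rule for naming them required.

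List counts here and below are to be read beside the shares over all genes tested, 22.6% higher and 21.5% lower. The share called was 76.0% for genes over 100 CPM. Pattern receptors that sense microbes mostly rose. Of 16 tested C-type lectins 9 rose and 3 fell (median log2 fold change 0.43, against -0.01 over all genes). Besides Clec4n, Clec4e, the mycobacterial receptor Mincle, rose from 22.3 to 105 CPM (2.23), Clec10a, which binds galactose sugars, from 2.58 to 19.3 CPM (2.90), and Clec5a, a DAP12-coupled receptor, from 15.8 to 44.1 CPM (1.48). Clec12a, an inhibitory receptor, fell from 607 to 397 CPM (-0.62). Among 16 Toll-like receptor genes and their partners 10 rose and 2 fell (median 0.22). Cd14, which hands lipopolysaccharide to TLR4, was at 211, 214 and 211 CPM in WT naive and at 860, 881 and 866 CPM in WT TCM (2.04, SE 0.02). Tlr5, the flagellin receptor, rose from 0.480 to 5.12 CPM (3.40, SE 0.27). Tlr4 itself was at 140 and 131 CPM, a fall (-0.09, adjusted p = 0.0086) whose call was lost without TCM replicate 2 (adjusted p = 0.10), and Cd180, a TLR4-like receptor of B cells and macrophages, fell from 624 to 378 CPM (-0.72).

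Uptake receptors included genes of both directions. Of 6 tested Fc receptors 3 rose and 1 fell, 2 with library totals in place of TMM scaling. Fcgr2b, the inhibitory receptor for IgG, was at 78.9, 78.9 and 80.1 CPM in WT naive and at 320, 330 and 332 CPM in WT TCM (log2 fold change 2.04, SE 0.03, adjusted p = 5.2e-65). Fcgr3, a low-affinity activating receptor, rose less, from 299 to 541 CPM (0.85), and Fcgr1, the high-affinity receptor, fell slightly (-0.10). Fcgrt, which recycles IgG, rose from 62.3 to 160 CPM (1.36). The shared signalling chain Fcer1g was at 936 and 919 CPM and was not called. Of 12 scavenger receptors 6 rose and 3 fell (median 0.07), with Marco, which binds bacteria and particles, up from 17.4 to 59.1 CPM (1.76) and Cd163, the haemoglobin receptor, from 8.96 to 21.6 CPM (1.27). The largest change in that list was the fall of Cd5l given above (-2.16). Cd36, a receptor for fatty acids and oxidised lipoproteins, was at 1391 and 1399 CPM and was not called. Among 13 genes for the uptake of dying cells 5 rose and 5 fell. Axl, a receptor tyrosine kinase for apoptotic cells, rose from 91.2, 86.8 and 87.9 CPM to 250, 251 and 239 CPM (1.48), and its ligand Gas6 from 706 to 1149 CPM (0.70). Mfge8, a bridge between apoptotic cells and integrins, fell from 165, 166 and 169 CPM to 62.8, 64.1 and 62.8 CPM (-1.40), as did Itgav, a chain of its receptor, from 213 to 105 CPM (-1.02).

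**Figure D4:**
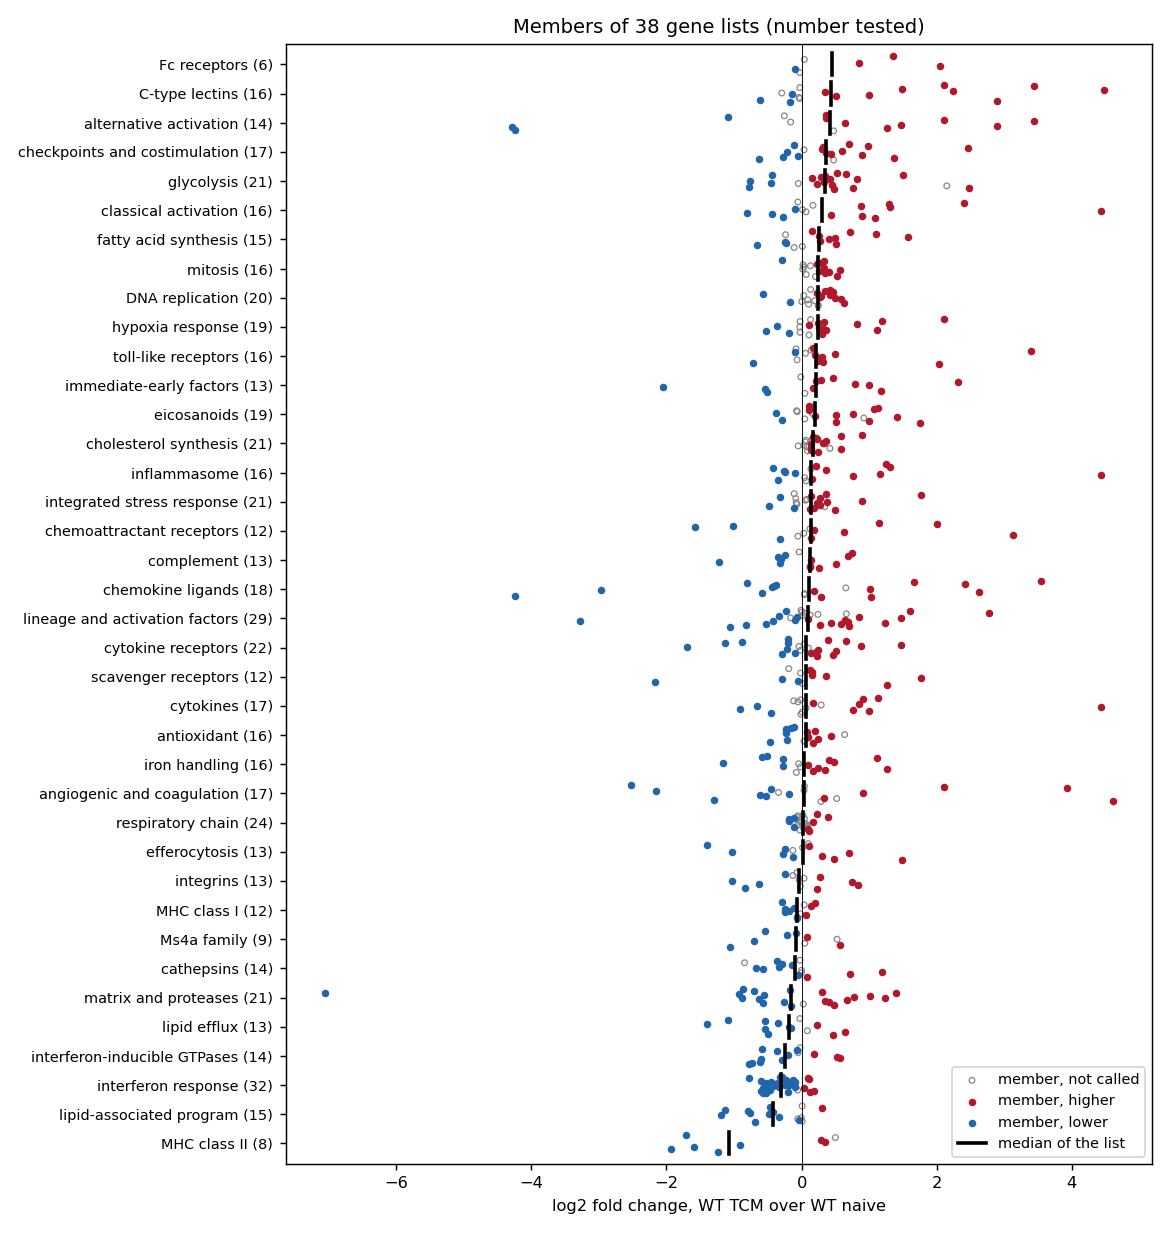
Log2 fold change of WT TCM over WT naive for the tested members of 38 gene lists, ordered by the list's median (black bar), with the number tested in parentheses. Filled points passed the test (red higher, blue lower). MHC class II lies lowest with a median of -1.08 and Fc receptors highest with 0.45, and the lowest point, Sparc in the matrix list, rests on 1 count in WT TCM.

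Chemokine genes moved in both directions, with 8 of 18 ligands higher and 7 lower (median log2 fold change 0.11). Ccl6, a ligand made by myeloid cells, was at 184, 192 and 195 CPM in WT naive and at 1162, 1154 and 1211 CPM in WT TCM (log2 fold change 2.63, SE 0.02, adjusted p = 9.4e-71). Ccl9, its relative, rose from 536 to 1077 CPM (1.01), and Pf4, platelet factor 4, from 192, 185 and 193 CPM to 598, 605 and 597 CPM (1.66). Pf4 and Ppbp are also markers of megakaryocytes, while Gp1bb of the same list had 0 counts in all 6 libraries. Ccl8 fell from 39.2, 41.1 and 42.7 CPM to 6.73, 3.77 and 5.04 CPM (-2.97, SE 0.10), and Ccl5, which attracts T cells, from 997 to 662 CPM (-0.59). The interferon-gamma induced ligands Cxcl9 and Cxcl10 fell too (-0.80 and -0.43). Among 12 receptors for chemoattractants 6 rose and 3 fell. Ccr1, a receptor of inflammatory chemokines, was at 16.7, 16.9 and 20.0 CPM in WT naive and at 158, 158 and 153 CPM in WT TCM (3.13, SE 0.04), and Fpr1 and Fpr2, receptors for formylated peptides, rose as well (2.00 and 1.14). Cx3cr1, the fractalkine receptor, fell from 26.8 to 8.91 CPM (-1.58), and Cxcr4, the receptor of CXCL12, from 55.3 to 27.1 CPM (-1.02).

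Cytokines and their receptors showed no common direction. Il1b, interleukin-1 beta, rose from 0.703 ± 0.174 CPM in WT naive to 15.3 ± 0.399 CPM in WT TCM, a log2 fold change of 4.43 (SE 0.16, adjusted p = 8.2e-37), while Il1rn, the antagonist of its receptor, fell from 180 to 114 CPM (-0.66). Tnf, at 46.6 and 44.8 CPM, and Il1a, at 0.641 and 0.656 CPM, were not called, and Il6 and Il12b had too few counts to be tested. Il18, which the same protease activates as IL-1 beta, rose from 7.83 to 13.2 CPM (0.76), and its soluble inhibitor Il18bp fell from 107 to 56.7 CPM (-0.92). Il10, an anti-inflammatory cytokine, fell from 5.57 to 4.08 CPM (-0.46, adjusted p = 0.0070), a call lost at thinned depth (adjusted p = 0.20) and without TCM replicate 1 (adjusted p = 0.050). Of 22 cytokine receptors 10 rose and 8 fell. Il4ra, the receptor chain for IL-4 and IL-13, was at 180, 174 and 178 CPM and at 498, 485 and 491 CPM (1.47, SE 0.02), and Tgfbr2 rose from 260 to 412 CPM (0.66). Tgfbr1, the partner of TGFBR2, fell from 204 to 110 CPM (-0.89), and Il7r, the receptor of IL-7, from 155 to 70.8 CPM (-1.14). Csf1r, the M-CSF receptor, rose from 1546 to 1817 CPM (0.23). Of 16 inflammasome genes 8 rose and 5 fell, with the sensor Nlrp3 up from 53.6 to 132 CPM (1.30), Txnip, which binds thioredoxin and can bind NLRP3, up from 343 to 820 CPM (1.26), and the protease Casp1 down from 111 to 87.5 CPM (-0.35).

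Lists named for macrophage activation contained members of both directions. Of 14 tested genes of alternative activation 8 rose and 3 fell. Mgl2, a lectin, rose from 0.414 to 4.64 CPM (log2 fold change 3.44), and Mrc1, the mannose receptor, from 629, 633 and 618 CPM to 2673, 2655 and 2744 CPM (2.10, SE 0.02). Chil3, a chitinase-like protein, fell from 10.4 to 11.5 CPM over the WT naive libraries to 0.459 to 0.678 CPM over the WT TCM libraries (-4.28, SE 0.19), and Pparg, a lipid-sensing nuclear receptor, from 49.2 to 23.1 CPM (-1.09). Arg1, arginase, was at 1.66, 1.07 and 1.36 CPM and at 1.72, 1.83 and 2.16 CPM. Its groups lay apart but it was not called (0.47, SE 0.26, adjusted p = 0.14). Of 16 genes of classical activation 8 rose and 4 fell. Saa3, an acute-phase protein, rose from 181 to 443 CPM (1.30), Acod1, which makes itaconate, from 27.8 to 58.8 CPM (1.08), and Socs3, an inhibitor of cytokine signalling, from 1.66, 2.62 and 2.39 CPM to 12.2, 12.3 and 10.7 CPM (2.40). Nos2, inducible nitric oxide synthase, was at 0.428, 0.623 and 0.633 CPM and at 0.887, 0.970 and 1.31 CPM (0.89, SE 0.37, adjusted p = 0.044). That call was lost with DESeq2 (adjusted p = 0.11), without a filter on low counts (0.088), in a fit of 10 libraries (0.058), and without TCM replicate 2 or 3 or any of the 3 naive libraries (adjusted p = 0.063 to 0.18).

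Most MHC class II genes, which serve antigen presentation, were lower. Of 8 tested genes 5 fell and 2 rose (median log2 fold change -1.08). H2-Aa and H2-Eb1, chains of the peptide-presenting molecules, fell from 55.6, 56.1 and 51.5 CPM to 15.7, 19.5 and 19.5 CPM (-1.59, SE 0.06) and from 33.7, 35.1 and 35.8 CPM to 9.70, 10.4 and 12.2 CPM (-1.71, SE 0.08). Ciita, the transcriptional activator of these genes, fell from 1.84 to 0.468 CPM (-1.94, SE 0.34). The peptide-loading genes H2-DMa and H2-DMb1 rose (0.34 and 0.28). The 7 dendritic cell markers, which mark another cell type with high MHC class II, summed to 1.90 to 2.80 CPM in WT naive and 0.983 to 1.56 CPM with TCM. The tested member, Xcr1, fell (-1.08, adjusted p = 0.020), a call lost with DESeq2, at thinned depth and without naive replicate 2 or TCM replicate 1 or 3, and the part of such cells in the class II genes was not tested. Class I genes stayed close to their naive levels, with 3 of 12 higher, 6 lower and log2 fold changes from -0.29 to 0.20. Of 17 checkpoint and costimulatory genes 10 rose and 5 fell (median 0.37). Vsir, the checkpoint protein VISTA, rose from 296 to 481 CPM (0.70), Siglece, an inhibitory sialic acid receptor, from 12.3 to 24.3 CPM (0.98), and Cd80, a costimulator of T cells, from 7.52 to 14.0 CPM (0.89). Nt5e and Entpd1, which degrade extracellular ATP to adenosine, rose as well (2.47 and 0.37), Nt5e from only 0.188 to 1.08 CPM. In contrast Cd274, which encodes PD-L1, fell from 80.8, 76.1 and 76.7 CPM to 51.9, 49.0 and 50.1 CPM (-0.63, SE 0.04).

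Genes induced by interferon fell together by small amounts. Of 32 tested members 26 fell and 5 rose (median log2 fold change -0.30), and none reached 2-fold, with values from -0.77 to 0.18. Usp18, which restrains interferon receptor signalling, was at 140, 139 and 139 CPM in WT naive and at 79.2, 82.0 and 83.9 CPM in WT TCM (-0.77, SE 0.03, adjusted p = 1.5e-33). Rsad2, the antiviral enzyme viperin, was at 313, 315 and 321 CPM and at 212, 213 and 202 CPM (-0.60, SE 0.02). The 5 that rose were Stat2, Ddx58, Ifi47, Trim30a and Ifitm3, by 0.04 to 0.18, and the call of Ifitm3 was lost under several alternatives (adjusted p = 0.24 with library totals). Of 14 interferon-inducible GTPases, which attack intracellular pathogens, 9 fell and 3 rose. Gbp2 fell from 90.5 to 52.9 CPM (-0.77) and Gbp7 rose from 32.3 to 47.8 CPM (0.57).

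The interferon-stimulated response element, bound by the factor ISGF3 and by IRFs, has the core GAAANNGAA. RefSeq promoters (250 bases before to 50 after the start, GRCm38.p6) matched 9302 of the 13132 tested genes, and 7.43% of them held this core on either strand. Of the 24 matched interferon genes 14 held it (58.3%). The 250 bases before the start of 3 of them are printed because these genes had the largest falls among called members with the core, which is in capitals. Ifit3 held 3 matches at 155, 121 and 102 bases before the start, the pair in Bst2 overlap each other, and Rsad2 held a single match. Capitals in Ifit3 and Rsad2 read the core on the opposite strand. The sequences run 5′ to 3′ on the gene's strand, at chr12:26456453-26456702 (minus) for Rsad2, chr19:34583279-34583528 (plus) for Ifit3 and chr8:71537473-71537722 (minus) for Bst2.
Rsad2: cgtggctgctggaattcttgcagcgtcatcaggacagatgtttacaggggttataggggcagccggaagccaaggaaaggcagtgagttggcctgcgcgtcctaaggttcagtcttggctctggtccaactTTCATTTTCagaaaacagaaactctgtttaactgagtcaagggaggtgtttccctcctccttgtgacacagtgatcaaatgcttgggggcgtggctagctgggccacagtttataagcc
Ifit3: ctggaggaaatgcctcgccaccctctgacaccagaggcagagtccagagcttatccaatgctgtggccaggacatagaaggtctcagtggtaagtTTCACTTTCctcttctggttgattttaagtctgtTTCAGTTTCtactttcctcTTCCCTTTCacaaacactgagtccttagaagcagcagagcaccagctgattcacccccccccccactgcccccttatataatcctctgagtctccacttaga
Bst2: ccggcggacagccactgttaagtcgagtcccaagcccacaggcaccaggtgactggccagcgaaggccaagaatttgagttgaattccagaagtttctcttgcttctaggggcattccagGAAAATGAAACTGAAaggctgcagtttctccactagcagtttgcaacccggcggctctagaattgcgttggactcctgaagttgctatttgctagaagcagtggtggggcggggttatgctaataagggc
Levels of Ifit3 fell from 398 to 267 CPM (-0.58) and those of Bst2, the virus-tethering protein tetherin, from 1480 to 999 CPM (-0.57). A match describes these letters only and does not show that a factor was bound.

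Glycolysis and hypoxia-responsive genes mostly rose. Of 21 tested glycolysis genes 15 rose and 4 fell (median log2 fold change 0.35). Aldoc, an aldolase isoform, rose from 8.31, 8.98 and 10.1 CPM to 46.6, 53.7 and 52.0 CPM (2.47, SE 0.07). Slc16a3, which exports lactate, rose from 38.9, 37.0 and 37.7 CPM to 106, 106 and 110 CPM. Slc2a1, the glucose transporter GLUT1, rose from 37.1 to 58.6 CPM (0.66), Pfkl, a phosphofructokinase, from 56.5 to 99.3 CPM (0.82), and Eno1, an enolase, from 534 to 905 CPM (0.76). The 4 that fell were Hk3, Pfkfb3, Eno2 and Slc16a1 (-0.78 to -0.44). Gapdh was at 16.3, 8.41 and 20.7 CPM and at 162, 15.8 and 15.9 CPM, so a single TCM library stood far above the rest and the gene was not called (adjusted p = 0.26). Its reads may be shared with its many processed copies, and its level is uncertain here. Of 19 hypoxia-responsive genes 11 rose and 3 fell (median 0.24). Vegfa, the main vessel growth factor, was at 25.6, 27.0 and 22.7 CPM and at 108, 108 and 110 CPM (2.11, SE 0.05). Pdk1, a kinase that inhibits pyruvate dehydrogenase, was at 39.9, 37.6 and 39.4 CPM and at 89.8, 86.3 and 89.9 CPM (1.19, SE 0.04). Higd1a, a mitochondrial protein, was at 15.9 and 15.7 CPM and was not called. Bnip3l, Ddit4 and Hilpda fell, but Ddit4 and Hilpda lost their calls with DESeq2 (adjusted p = 0.094 and 0.079) and when single libraries, naive replicates 1 and 2 and TCM replicate 1 in both genes, were left out (adjusted p = 0.069 to 0.20), and Ddit4 also without TCM replicate 2 (adjusted p = 0.069).

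The hypoxia response element, bound by the HIF factors, has the core ACGTG. It stood in 26.0% of the 9302 promoters, in 10 of 15 matched hypoxia genes (66.7%) and in 11 of 21 glycolysis genes (52.4%). Among the called members of these lists it stood in 6 of 11 hypoxia genes (54.5%) and in 9 of 19 glycolysis genes (47.4%). Among the 296 genes that rose at least 2-fold, 219 had a promoter and 43 held it (19.6%). The share was much the same among genes that fell at least 2-fold, where 47 of 227 promoters held it (20.7%). The 250 bases before the start are shown for the 3 called hypoxia genes with the largest changes among those with the core, since 2 of them rose and 1 fell. They lie at chr12:54203875-54204124 for Egln3, chr8:124949255-124949504 for Egln1 and chr10:59951771-59952020 for Ddit4, all on the minus strand, with the core in capitals.
Egln3: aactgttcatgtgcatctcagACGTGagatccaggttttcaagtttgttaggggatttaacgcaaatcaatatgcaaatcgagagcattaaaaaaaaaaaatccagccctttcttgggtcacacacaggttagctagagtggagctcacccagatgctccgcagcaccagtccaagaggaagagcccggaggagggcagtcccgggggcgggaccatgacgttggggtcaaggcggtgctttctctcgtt
Egln1: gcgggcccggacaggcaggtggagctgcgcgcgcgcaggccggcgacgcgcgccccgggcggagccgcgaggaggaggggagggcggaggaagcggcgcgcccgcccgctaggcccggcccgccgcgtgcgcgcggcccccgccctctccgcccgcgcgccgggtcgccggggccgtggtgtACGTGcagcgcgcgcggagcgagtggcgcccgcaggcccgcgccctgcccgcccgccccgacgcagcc
Ddit4: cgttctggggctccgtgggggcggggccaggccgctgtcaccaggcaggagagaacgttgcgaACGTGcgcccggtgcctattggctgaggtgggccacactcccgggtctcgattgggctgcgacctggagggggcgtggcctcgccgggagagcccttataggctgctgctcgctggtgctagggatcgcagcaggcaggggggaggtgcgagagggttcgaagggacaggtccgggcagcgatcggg
Egln1, the main oxygen-sensing prolyl hydroxylase, rose from 38.5 to 49.5 CPM (0.36, SE 0.05), and its relative Egln3 from 0.419 to 0.907 CPM (1.12, SE 0.41, adjusted p = 0.020). Ddit4, an inhibitor of mTORC1, was at 2.90 and 2.01 CPM (-0.53, SE 0.21, adjusted p = 0.032).

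Lipid genes moved differently by function. Of 21 genes of cholesterol synthesis and its control 13 rose and 0 fell in edgeR's test (median log2 fold change 0.17, at most 0.89), with 0 lower at an unadjusted p under 0.05 as well and 0 lower and 12 higher with DESeq2. Of 15 genes for making fatty acids 9 rose and 3 fell, with the desaturases Fads2 up from 10.1, 8.72 and 9.25 CPM to 27.2, 27.1 and 29.2 CPM (1.57, SE 0.08) and Scd2 from 332 to 545 CPM (0.72). Among 15 genes of the lipid-associated macrophage program, 10 fell and 1 rose (median -0.42). Lpl (ENSMUSG00000015568, chromosome 8, 68880491 to 68907448, plus strand), lipoprotein lipase, was at 3069, 3026 and 3098 CPM in WT naive and at 1385, 1380 and 1438 CPM in WT TCM (-1.13, SE 0.01, adjusted p = 3.1e-66). Fabp4, a fatty acid carrier, fell from 54.2 to 23.6 CPM (-1.20), Lipa, the lysosomal acid lipase, from 1550 to 898 CPM (-0.79), and the receptor Trem2 from 1047 to 758 CPM (-0.47). Spp1, osteopontin, was the member that rose, from 1431 to 1758 CPM (0.30). Nr1h3, the sterol-sensing receptor LXR alpha, fell from 63.0, 61.6 and 62.0 CPM to 24.0, 23.6 and 23.2 CPM (-1.40, SE 0.05), and of 13 genes of lipid efflux 8 fell and 3 rose. The risers were Nr1h2, Abca1, which exports cholesterol, from 662 to 915 CPM (0.47), and Apoe, its acceptor, from 6388, 6292 and 6395 CPM to 9829, 9989 and 10030 CPM (0.65, SE 0.01).

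Secreted matrix enzymes and clotting factors were mixed. Of 21 tested matrix genes and proteases 9 rose and 11 fell. Mmp14, a membrane collagenase, rose from 45.0 to 106 CPM (log2 fold change 1.24) and Mmp9, a gelatinase, from 24.5 to 64.4 CPM (1.39), while the elastase Mmp12 fell from 311 to 201 CPM (-0.63) and the collagenase Mmp13 from 30.9 to 16.8 CPM (-0.89). Mmp8, a neutrophil collagenase, also fell (-0.93), and it stands in the neutrophil list as well. Of 17 angiogenic and clotting genes 5 rose and 7 fell, with Plaur, the urokinase receptor, up from 23.6 to 44.2 CPM (0.91). Among those that fell were Vegfc, a lymphatic growth factor, from 0.921 to 0.163 CPM (-2.53), F7, coagulation factor VII, from 4.37 to 1.81 CPM (-1.30), and Pdgfb, a growth factor for mural cells, from 92.0 to 60.2 CPM (-0.61). Of 14 cathepsins 3 rose and 7 fell, among them Ctsc, which activates granule proteases, up from 612 to 1005 CPM (0.71), and Ctsl down from 2689 to 2125 CPM (-0.34). Acp5, the tartrate-resistant phosphatase of osteoclasts and some macrophages, fell from 71.9 to 19.3 CPM (-1.89). In iron handling 8 of 16 genes rose and 5 fell. Slc40a1, the iron exporter ferroportin, rose from 44.2 to 95.5 CPM (1.11), and Tfrc, the transferrin receptor, fell from 180 to 126 CPM (-0.51). Among 19 eicosanoid genes 11 rose and 2 fell, with Ptgs1, cyclooxygenase 1, up from 3.07 to 6.73 CPM (1.13), whereas Ptgs2, cyclooxygenase 2, at 0.689 and 0.787 CPM, was not called.

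Transcription factors changed in both directions, with 12 of 29 lineage and activation factors higher and 9 lower. Klf2, which restrains inflammatory genes, rose from 17.3 to 48.0 CPM (log2 fold change 1.47), Cebpd from 25.8 to 60.6 CPM (1.23), Maf from 672 to 1206 CPM (0.84) and Tfec, a relative of MITF, from 8.75 to 26.7 CPM. Runx3 rose from 1.12 to 7.71 CPM (2.77, SE 0.18). Id3 (ENSMUSG00000007872, chromosome 4, 136143497 to 136145755, plus strand), an inhibitor of DNA binding, was at 11.9, 12.2 and 12.4 CPM and at 1.62, 0.970 and 1.11 CPM (-3.28, SE 0.16, adjusted p = 9.3e-30). Atf3, a stress-induced repressor, fell from 265, 271 and 261 CPM to 133, 123 and 127 CPM (-1.06, SE 0.03). The master factor of the myeloid lineage, Spi1, was at 469 and 471 CPM and was not called. Of 13 immediate-early genes 8 rose and 3 fell, led by Ier3 from 4.56, 4.71 and 5.55 CPM to 26.4, 23.2 and 24.0 CPM (2.32), and without naive replicate 1 only 1 of the falls, that of Fosl1, was called. Kdm6b, the histone demethylase gene targeted in the JMJD3 line, rose from 4.94, 4.80 and 5.21 CPM to 11.2, 13.9 and 9.43 CPM (1.21, SE 0.12).

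Replication, mitosis and respiratory chain genes all changed by less than 2-fold. Of 20 replication genes 10 rose and 2 fell, with Mcm2, a helicase subunit, up from 42.4 to 63.7 CPM (log2 fold change 0.58) and Pcna, the polymerase clamp, down from 492 to 331 CPM (-0.57). Of 16 mitosis genes 9 rose and 1 fell, all within 0.57. In the respiratory chain, 5 of 24 nuclear genes rose and 4 fell, 7 with library totals in place of TMM scaling, within -0.19 to 0.39. Over all autosomal genes tested 22.6% rose and 21.5% fell, so the counts of 5 and 4 are no result about this list. In the integrated stress response 11 of 21 genes rose and 3 fell. Slc7a11, the cystine importer, rose from 0.660 to 2.24 CPM (1.77), and Ddit3, the stress factor CHOP, fell from 70.7 to 50.8 CPM (-0.48).

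Among gene classes, antisense genes were lower more often than higher, with 69 of 342 lower and 9 higher (median log2 fold change -0.25), and long intergenic RNAs had 56 of 305 lower and 28 higher (-0.17). Protein-coding genes had 2545 of 11093 lower and 2833 higher (median 0.00). In either direction 22.8% of antisense genes, 27.5% of long intergenic RNAs and 48.5% of protein-coding genes were called. Over all autosomal genes tested 21.5% were lower and 22.6% higher. Counting calls of any size, the 2 noncoding classes thus had few rises and no excess of falls. At 2-fold or more the falls took a larger share than over all genes. That far, 26 antisense genes fell and 4 rose, and 25 long intergenic RNAs fell and 6 rose. Over all autosomal genes tested 2.75% fell and 2.25% rose at least 2-fold. The share called followed the level, and the classes were not matched for level. The strand setting of the counting is not stated in those sources, so reads of an antisense gene and of its partner cannot be told apart.

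Beside these 2 groups, the other TCM groups gave the following levels, all on a scaling over the 16 libraries. Trap1 was at 0 to 0.0535 CPM in the libraries labelled TRAP1 KO. Kdm6b was at 25.1 ± 1.69 CPM in the libraries labelled JMJD3 WT and 25.6 ± 1.02 CPM in those labelled JMJD3 cKO, so its gene-level count did not separate these labels. Gene counts do not show which exons were read, so a deletion of part of the gene was not checked. Ccr1 was at 17.3 CPM in WT naive and rose to 151 with TCM, beside 170 CPM in the libraries labelled TRAP1 KO, 172 in those labelled JMJD3 WT and 190 in those labelled JMJD3 cKO. Pdlim5 was at 282, 104, 101, 117 and 110 CPM and Id3 at 11.8, 1.19, 1.92, 1.55 and 0.910 CPM in the same order. For these genes all 4 TCM groups lay on the same side of WT naive. Other genes did not follow. Igfbp4 was at 143, 511 and 818 CPM in the first 3 of these groups, but at 60.5 and 102 CPM in the JMJD3 line. Fcrls, an Fc receptor-like scavenger receptor, was at 172, 544 and 476 CPM and at 115 and 130 CPM. Adra1a was at 39.3, 3.32 and 9.09 CPM and at 44.5 and 26.5 CPM, above WT naive in the libraries labelled JMJD3 WT and below it in those labelled JMJD3 cKO. Rsad2 was at 306, 202 and 118 CPM and at 3609 and 1275 CPM. The JMJD3 line has no naive group here and differs from the other libraries in Xist and Ddx3y, so its response to TCM cannot be told apart from differences of line and sex.

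**Figure D5:**
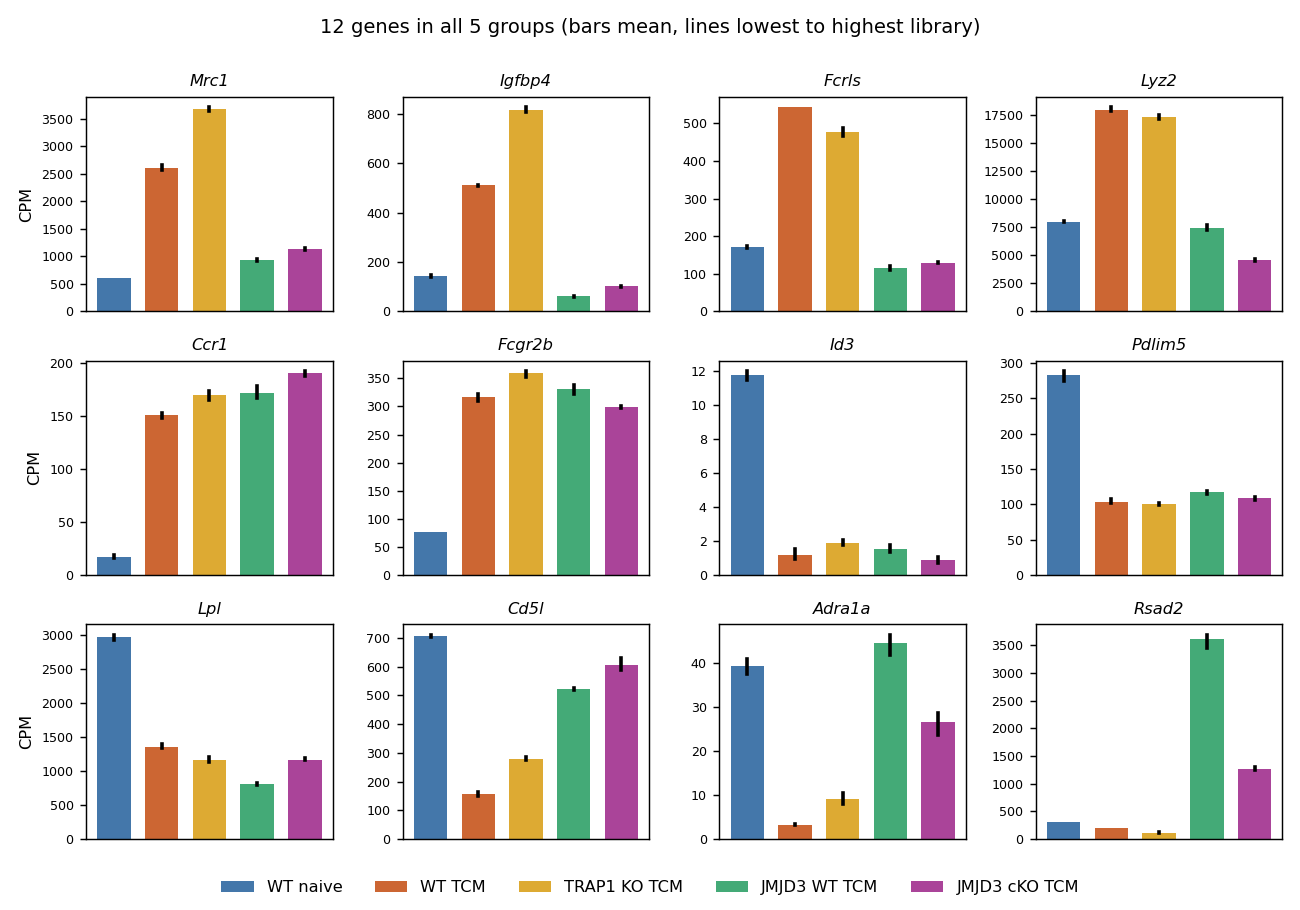
Level of 12 genes in the 5 groups in CPM, with bars for the mean and lines from the lowest to the highest library (n = 3, or 4 for TRAP1 KO TCM). Ccr1, Fcgr2b, Id3, Pdlim5 and Lpl differ from WT naive in the same direction in all 4 TCM groups, while Igfbp4, Fcrls and Lyz2 in both groups of the JMJD3 line lie below WT naive.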

How the data were processed

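Total RNA was depleted of ribosomal RNA and sequenced from stranded libraries on Illumina instruments, per the labels' protocols. The authors deposited raw read counts per gene for each library, as whole numbers. HISAT, StringTie, Bowtie2, RSEM and the build mm10 appear without versions in the submitters' processing notes. What each tool did, the annotation release and the strand setting are not stated there. Names and positions came from GENCODE M21 (GRCm38) by gene identifier.

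Counts of the 6 libraries were fitted in edgeR 4.0.16 (R 4.3.3) with TMM scaling, filterByExpr at a minimum count of 10 and the robust quasi-likelihood test, with Benjamini-Hochberg adjustment over all 13606 genes tested. The autosomal genes among them were reported. Called genes had an adjusted p under 0.05, and SE is that of the log2 fold change. The fit was also run on counts simulated from its own means and spread, with far fewer genes changed than were called here. That run cannot show how the fit performs on these data. Genes were named by rank of fold change, of abundance and of CPM difference, and by up to 4 called members of each list with a mean of at least 5 CPM. These rules took only called genes whose groups did not overlap, so the separation of those genes was fixed by their selection. Other named genes were chosen after their values were seen. The members and lists were chosen with earlier results of these data known. Same-numbered libraries did not deviate together (r = 0.00473, 0.0288 and -0.0118), so the main test had no replicate block. DESeq2 1.42.0, other scalings, filters and sets of libraries, thinned counts, a replicate block and leaving out each library were tried as alternatives.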

Additional observations from a re-analysis of the deposited data

How the results depend on the processing

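Autosomal genes higher and lower with TCM numbered 2972 and 2826 as reported, 2597 and 2377 with DESeq2, 2704 and 3122 with library totals, 2745 and 2873 without a filter, and 2740 and 2640 at thinned depth. Leaving out each library in turn gave 2683 to 2795 higher and 2561 to 2653 lower. At 2-fold or more, requiring at least 50 counts in 3 libraries left 177 higher and 185 lower, since that filter removes low genes, and leaving out each library gave 303 to 329 and 370 to 429. With the replicate block 2971 were higher and 2821 lower, and of 268 named genes 268 kept their side of the threshold. No named gene reversed direction under any alternative run. At least 50 counts left 3 fibroblast markers and 0 monocyte markers called lower, against 7 and 4. Changes of genes under 1 CPM rest on few counts, since 3 counts are 0.133 to 0.197 CPM.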

Other observations

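Some neighbouring receptor genes rose together. These genes were chosen after their values were seen. On chromosome 17 Trem1, an activating receptor of myeloid cells, was at 0.141 CPM in WT naive and 5.75 CPM in WT TCM (log2 fold change 5.29, SE 0.31). Its neighbour Treml4 also rose (1.62). On chromosome 5 the paired immunoglobulin-like receptors rose, Pilra, which is inhibitory, from 25.5 to 93.5 CPM (1.88), and the activating Pilrb1 and Pilrb2 from 6.24 to 26.4 CPM and from 6.71 to 27.6 CPM. Reads of Pilrb1 and Pilrb2 may be split between near-identical copies, so their separate levels are uncertain. On chromosome 3 the neighbours Bdh2, a dehydrogenase, and Slc9b2, a sodium-proton exchanger, fell (-2.96 and -2.43).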
